A study of Mus musculus with 10 samples.

Results

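The p53 pathway was followed through 34 genes in primary mouse LECs, which are lymphatic endothelial cells and form the lining of lymph vessels. They comprise Trp53, which encodes p53, 3 of its inhibitors and 30 known targets or relatives of targets, and their symbols picked them out of the 16251 genes in the table of estimated read counts. All 34 were found and 33 had enough counts to be tested. Small interfering RNA (siRNA) at 50 nM against Vegfr2, the growth factor receptor encoded by Kdr, had been transfected into the cells of 5 libraries, labelled Vegfr2 siRNA. The other 5 libraries were labelled control and carry the same treatment tag, siRNA knockdown, but the labels do not name a control siRNA. Titles of both groups give 48 h, the genotype tag reads Control or siRNA, and no animal strain is given for the cells. The labels do not say whether replicates were separate cultures, so p-values measure the spread between these libraries, which may be technical.

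p53 is a transcription factor that is held at a low level in unstressed cells, mainly because Mdm2 marks it for destruction and Mdm4 blocks its activity. DNA damage, ribosome stress and other insults release it, and it then raises genes that stop the cell cycle, repair DNA, adjust metabolism or start cell death. Mdm2 is itself a p53 target, which closes a feedback loop. Several targets also answer to other factors, such as FOXO proteins or ATF4, so the level of 1 target alone does not report p53 activity.

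Libraries held 17946483 to 18239260 estimated reads on genes. Levels are given as CPM, the normalised read count scaled to library size. Kdr stood at 191, 196, 200.5, 173 and 167 CPM in siRNA libraries, against 1328, 1320.0, 1280.0, 1259 and 1431 CPM in control libraries (replicates 1 to 5 in each list of values). The siRNA libraries were all far below the control libraries (log2 fold change −2.83, SE 0.059, adjusted p = 3.14e-11; two-sided exact permutation test p = 0.00794, the smallest that 252 assignments allow). Of 10 markers of lymphatic endothelium, summed levels ran from 8632 to 9376 CPM in siRNA and from 12701 to 13825 CPM in control libraries. Of these 10 markers 9 fell (90%, against 35.2% of all tested genes). The 10 pan-endothelial markers, Kdr among them, summed to 4808 to 5026 CPM in siRNA and 7092 to 7349 CPM in control libraries, and 9 of them (90%) fell too. The 12 fibroblast and mural markers summed to 15.2 to 17.4 CPM in siRNA and 15.4 to 20.9 CPM in control libraries. The 7 blood markers in the table summed to 37.1 to 48.7 CPM in siRNA and 51.4 to 59.9 CPM in control libraries. For the 5 epithelial markers in the table the sums were 7.68 to 8.73 CPM in siRNA and 1.22 to 2.52 CPM in control libraries. No marker in the table was at 0 in every library. The part of these shifts in the results was not tested, and in bulk RNA fewer cells of a type and less RNA per cell cannot be told apart.

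p53 targets and regulators moved in both directions after the siRNA, mostly by small amounts. Of the 33 tested, 27 changed (81.8%), against 71.3% of all 12161 tested genes, which is the background in this comparison. A gene counted as changed at an adjusted p under 0.05 in edgeR's quasi-likelihood test over all tested genes, and log2 fold changes are siRNA over control. Higher were 15 (45.5%, against 36.1% of all genes) and lower were 12 (36.4%, against 35.2%). Their median log2 fold change was 0.07 (0.12 for members with a mean of at least 5 CPM), against −0.0019 over all tested genes, and the median size of the change was 1.26-fold, against 1.16-fold. For 24 members (72.7%) the siRNA and control libraries did not overlap, as they did not for 57.0% of all genes. At least 2-fold were the changes of 3 members, Ephx1, Sesn1 and Gadd45a (9.09%, against 4.61% of all genes). The members' shares lay near or somewhat above a background in which most genes changed, and no test set the members against that background. The split between directions was close to even.

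**Figure D1:**
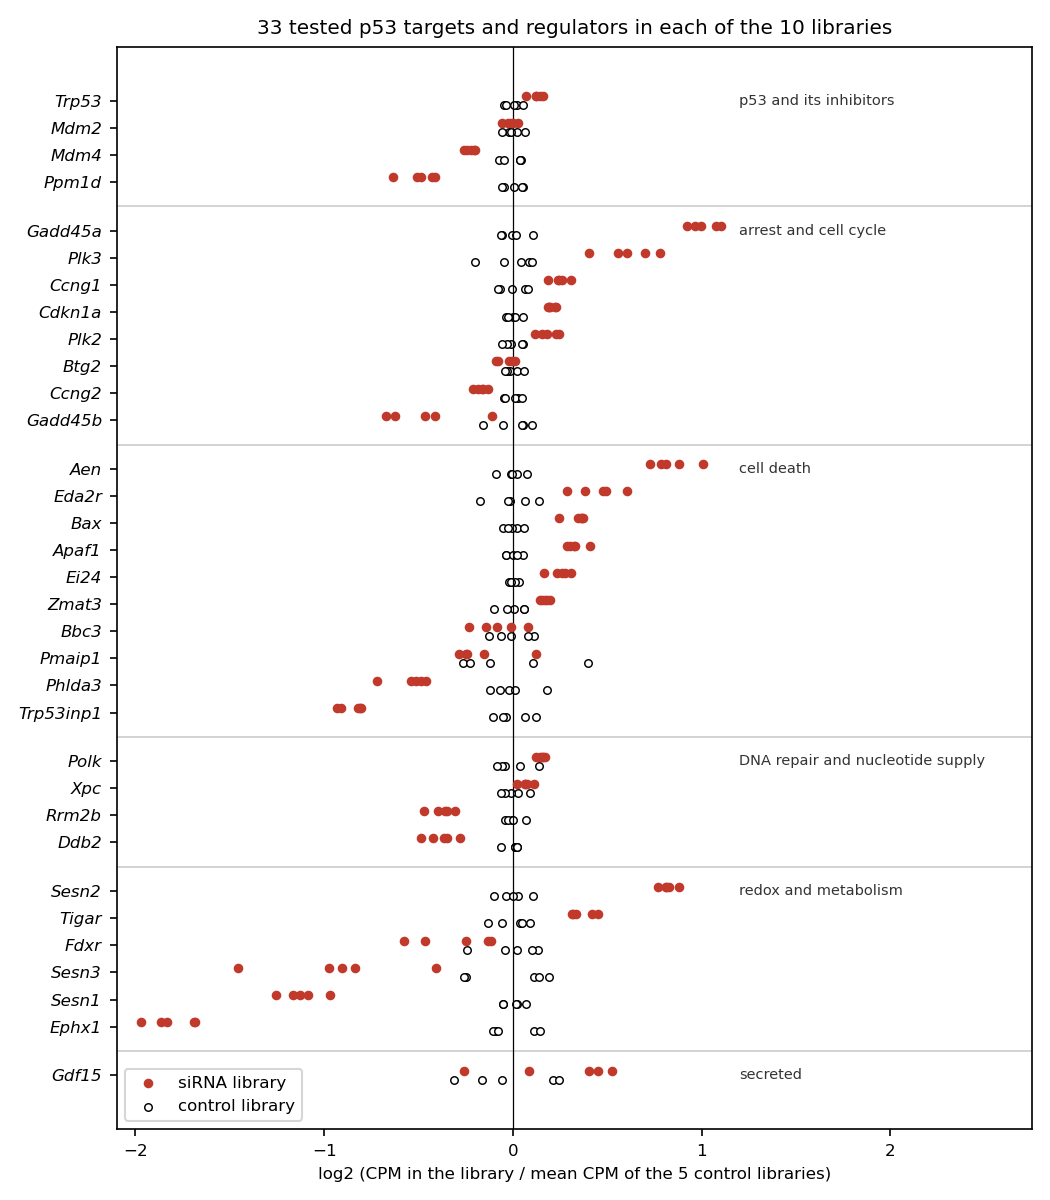
Each row is 1 of the 33 tested members, grouped by role, and each point is 1 library, placed at the log2 ratio of its CPM to the mean of the 5 control libraries (red, siRNA, upper points of a row; open, control, lower points). Gadd45a, Plk3, Aen and Sesn2 stand to the right of their control points and Ephx1, Sesn1 and Trp53inp1 to the left, whereas Mdm2, Btg2, Bbc3, Pmaip1, Xpc and Gdf15 overlap them.

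**Figure D2:**
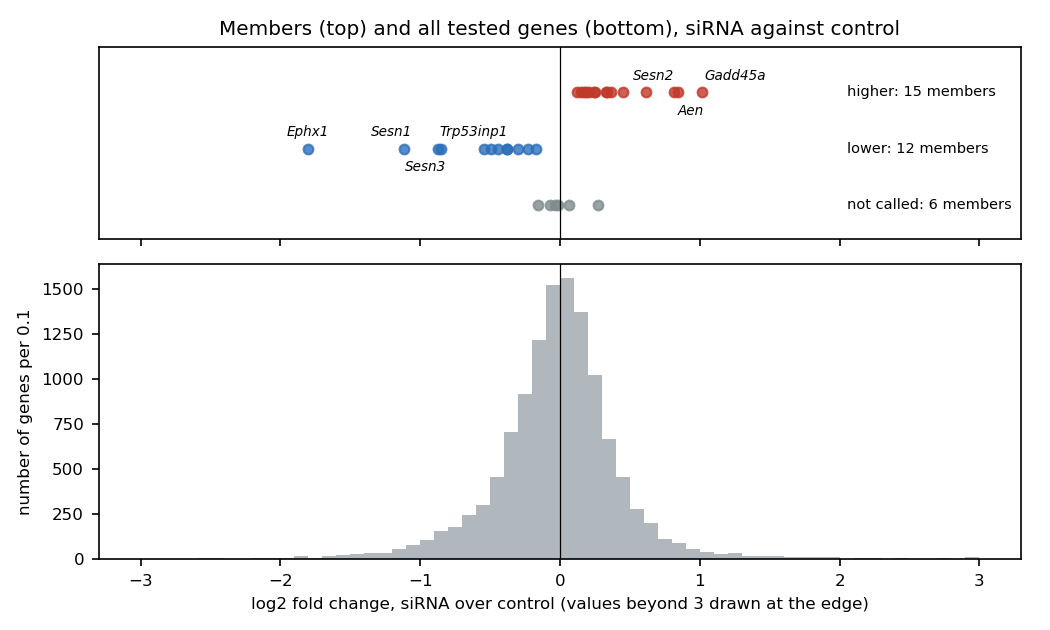
The upper panel places each tested member at its log2 fold change, siRNA over control, on a row for the 15 higher, the 12 lower and the 6 that were not called. The histogram below counts all 12161 tested genes per 0.1 of log2 fold change, and most members lie within its central peak.

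p53 binds DNA at pairs of a 10-letter decamer, and promoters of members were searched for it because it is the sequence p53 recognises. RefSeq promoter windows on GRCm38.p6, from 250 bases before to 50 bases after an annotated start, were present for 27 of the 34 members, all tested. The decamer (the standard p53 decamer code, which is its own reverse complement and so is read on both strands at once) was present in a window of 11 of these 27 (40.7%), against 801 of 9763 tested genes with a window (8.20%) and 8.36% of all 32851 windows. The members were chosen as p53 targets and regulators, so a share above that of all genes is no new result. Of the 11 carriers 8 rose (72.7%), 2 fell (18.2%) and Mdm2 did not pass. Those that rose were Trp53, Cdkn1a, Ccng1, Gadd45a, Bax, Aen, Ei24 and Polk, while Sesn1 and Ppm1d fell. Among the 16 members with a window but no decamer, 6 were higher (37.5%), 7 lower (43.8%) and 3 not called. The search did not cover the directions evenly. Windows were present for 14 of the 15 members that rose, 9 of the 12 that fell and 4 of the 6 not called. A link between the decamer and the direction of change was not tested. Over all tested genes the split differed little, with 35.7% higher and 37.1% lower among carriers and 36.5% and 34.6% among the others. A pair of decamers at most 13 bases apart was in 0.0731% of all windows and, among members, at the upstream start of Cdkn1a alone. A match is a description of these letters and not a measured binding site, and many p53 sites lie outside such windows.

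The windows of 5 members are shown because they carry the decamer, in capitals, while their transcripts took different courses. Cdkn1a, Gadd45a and Aen rose, Mdm2 did not pass, and Sesn1 fell. The first window of Cdkn1a is at its upstream start (chr17:29090729-29091028, plus strand), with decamers that begin 73 and 51 bases before that start. Gadd45a (chr6:67037358-67037657, minus strand) has it 40 bases before the start, Aen (chr7:78895677-78895976, plus strand) 10 bases after, Mdm2 (chr10:117710709-117711008, minus strand) 186 bases before, and Sesn1 (chr10:41887189-41887488, plus strand, the inner of its annotated starts) 173 bases before. Each is given 5′ to 3′ on the strand of its gene.
Cdkn1a: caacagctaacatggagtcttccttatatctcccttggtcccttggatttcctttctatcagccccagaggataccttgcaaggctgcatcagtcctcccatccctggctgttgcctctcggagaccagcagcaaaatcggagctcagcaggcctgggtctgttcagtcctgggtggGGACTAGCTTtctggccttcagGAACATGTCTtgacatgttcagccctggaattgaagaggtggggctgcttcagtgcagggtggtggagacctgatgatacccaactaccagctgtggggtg
Gadd45a: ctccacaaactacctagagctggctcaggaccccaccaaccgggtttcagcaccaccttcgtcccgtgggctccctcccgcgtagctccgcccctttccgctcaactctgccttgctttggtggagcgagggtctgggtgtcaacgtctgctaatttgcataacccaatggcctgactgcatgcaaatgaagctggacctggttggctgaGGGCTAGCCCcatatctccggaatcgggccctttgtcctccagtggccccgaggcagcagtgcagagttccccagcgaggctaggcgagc
Aen: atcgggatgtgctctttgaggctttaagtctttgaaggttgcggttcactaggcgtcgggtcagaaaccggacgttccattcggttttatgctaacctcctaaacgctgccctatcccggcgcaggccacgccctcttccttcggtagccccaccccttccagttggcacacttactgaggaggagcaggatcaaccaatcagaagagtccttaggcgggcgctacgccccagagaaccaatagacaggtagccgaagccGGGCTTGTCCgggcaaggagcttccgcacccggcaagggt
Mdm2: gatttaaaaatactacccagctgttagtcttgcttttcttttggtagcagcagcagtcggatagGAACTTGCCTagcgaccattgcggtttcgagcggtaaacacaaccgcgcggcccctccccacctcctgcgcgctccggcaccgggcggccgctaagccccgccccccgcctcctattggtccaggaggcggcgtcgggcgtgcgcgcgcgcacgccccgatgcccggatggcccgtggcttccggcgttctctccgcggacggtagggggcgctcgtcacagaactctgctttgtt
Sesn1: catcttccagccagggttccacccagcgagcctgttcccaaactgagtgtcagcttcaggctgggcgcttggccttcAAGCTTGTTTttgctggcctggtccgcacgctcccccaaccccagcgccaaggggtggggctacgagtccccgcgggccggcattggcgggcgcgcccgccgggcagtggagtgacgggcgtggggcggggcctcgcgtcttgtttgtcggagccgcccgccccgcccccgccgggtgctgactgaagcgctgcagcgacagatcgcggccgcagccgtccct

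Of 4 genes, p53 and its inhibitors, 1 rose (25%, against 36.1% of all genes), 2 fell (50%, against 35.2%) and 1 did not pass. In all 75% of them changed, which is close to the 71.3% of all tested genes. Trp53 was slightly higher and 2 of the inhibitor genes were lower. Trp53 (Entrez gene 22059, GRCm38.p6 chromosome 11, 69580348 to 69591873) had 162, 156, 164, 161 and 166 CPM in siRNA libraries and 143, 151, 149, 154 and 145 CPM in control libraries. Every siRNA library was above every control library, though the nearest pair of libraries lay close together (log2 fold change 0.12, SE 0.027, adjusted p = 6.05e-05). Ppm1d, which encodes the phosphatase WIP1 that removes activating marks from p53, was at 27.0, 25.6, 27.3, 25.9 and 23.4 CPM in siRNA libraries, against 35.1, 37.6, 36.5, 37.5 and 34.9 CPM in control libraries, a fall to 71.1% of the control mean with no overlap (log2 fold change −0.49, SE 0.045, adjusted p = 5.92e-13). Mdm4, the transcript of the inhibitor that masks p53's activation domain, averaged 111 ± 1.94 CPM in siRNA and 129.5 ± 4.96 CPM in control cells (SD, n = 5 each) and fell as well (log2 fold change −0.23, SE 0.028, adjusted p = 2.67e-09).

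Mdm2, the ubiquitin ligase gene that p53 itself activates, was the member closest to no difference. It had 66.4, 68.0, 66.8, 64.2 and 65.5 CPM in siRNA libraries and 69.7, 65.8, 67.7, 64.1 and 66.4 CPM in control libraries, and the groups overlapped. The difference was near 0 (log2 fold change −0.012, SE 0.032, adjusted p = 0.747), with a 95% interval from −0.08 to 0.05. The estimated count of Mdm2 was fractional, a sign of reads divided between genes, in 3 of the 10 libraries.

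Of 8 cell cycle arrest genes, 5 rose (62.5%, against 36.1% of all genes), 2 fell (25.0%, against 35.2%) and 1 did not pass. Gadd45a, a stress-induced regulator of growth arrest (Entrez gene 13197, chromosome 6, 67035096 to 67037407), rose most of all members. It had 62.6, 69.0, 64.1, 60.8 and 67.6 CPM in siRNA libraries and 30.9, 32.0, 34.5, 32.5 and 30.7 CPM in control libraries, and the lowest siRNA library was well above the highest control library (log2 fold change 1.01, SE 0.041, adjusted p = 6.50e-25). On 19.1% of its exon bases Gadd45a overlaps a gene on the opposite strand, and no strand setting is given in the sources used here. How many of its reads came from that gene was not tested. Plk3, a polo-like kinase gene of the stress response, had 18.0, 15.7, 17.5, 20.4 and 19.3 CPM in siRNA libraries and 12.6, 11.5, 12.2, 12.7 and 10.3 CPM in control libraries, again without overlap (log2 fold change 0.61, SE 0.068, adjusted p = 1.43e-10).

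Cdkn1a, which encodes p21, the CDK inhibitor through which p53 halts the cycle (Entrez gene 12575, chromosome 17, 29090979 to 29100722), rose by a small amount. Its values were 58.9, 60.1, 58.7, 60.3 and 59.0 CPM in siRNA libraries, against 51.5, 51.9, 50.3, 50.6 and 53.4 CPM in control libraries. The 5 libraries of each group lay close together and the groups did not overlap (log2 fold change 0.21, SE 0.034, adjusted p = 7.75e-07). On 7.68% of its exon bases Cdkn1a overlaps a gene on the opposite strand, and the part of that gene in its reads was not tested. Smaller overlaps of this kind are annotated for Ei24 (6.66%), Tigar (3.34%) and Plk3 (3.32%). Ccng1, encoding cyclin G1, which acts on Mdm2 through a phosphatase, rose to 119% of the control mean, and Plk2, the member with the highest level per length, to 114% (log2 fold change 0.25, SE 0.035, adjusted p = 5.35e-08 for Ccng1; log2 fold change 0.19, SE 0.027, adjusted p = 6.79e-08 for Plk2).

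Ccng2, encoding cyclin G2, which restrains cycling, went the other way at 47.5 ± 0.965 CPM in siRNA and 53.5 ± 1.59 CPM in control cells (SD, n = 5 each; log2 fold change −0.17, SE 0.035, adjusted p = 4.44e-05). Gadd45b, a relative of Gadd45a known for its response to NF-kappaB and TGF-beta, had only 25 to 37 reads in siRNA and 35 to 42 reads in control libraries. It fell as well, although 1 siRNA library reached into the control range (log2 fold change −0.44, SE 0.156, adjusted p = 0.0111). Btg2, an antiproliferative gene, had 90.3 ± 2.81 CPM in siRNA and 92.7 ± 2.71 CPM in control cells (SD, n = 5 each). Its groups overlapped and it did not pass (log2 fold change −0.037, SE 0.030, adjusted p = 0.274; 95% interval −0.10 to 0.02).

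Among 11 cell death genes, Perp was under the filter, and of the 10 tested 6 rose (60.0%, against 36.1% of all genes), 2 fell (20%, against 35.2%) and 2 did not pass. Aen, which encodes an exonuclease that p53 induces during apoptosis (Entrez gene 68048, chromosome 7, 78895927 to 78911209), had 35.0, 37.5, 35.7, 33.7 and 40.8 CPM in siRNA libraries and 20.7, 20.2, 21.4, 20.3 and 19.1 CPM in control libraries. All siRNA libraries were well above all control libraries (log2 fold change 0.84, SE 0.050, adjusted p = 4.23e-19). Bax, which encodes a pore-forming protein of the mitochondrial outer membrane, had 58.7, 63.0, 64.2, 63.9 and 63.6 CPM in siRNA libraries and 50.5, 47.9, 49.4, 51.6 and 48.8 CPM in control libraries. These did not overlap either (log2 fold change 0.34, SE 0.035, adjusted p = 2.26e-11), although 12.2% of Bax exon bases overlap another gene on the same strand.

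Apaf1, the scaffold of the apoptosome on which caspase 9 is activated, rose to 126% of the control mean (log2 fold change 0.33, SE 0.026, adjusted p = 6.92e-15). Eda2r, a receptor of the TNF family, reached 137% (log2 fold change 0.45, SE 0.072, adjusted p = 4.50e-07), Ei24, an endoplasmic reticulum protein gene, 119% (log2 fold change 0.25, SE 0.029, adjusted p = 3.84e-10) and Zmat3, a zinc finger RNA-binding protein gene, 112% (log2 fold change 0.17, SE 0.043, adjusted p = 0.000625). The siRNA libraries of each of these 4 genes were all above the control libraries.

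The pair of BH3-only genes, whose small products trigger Bax and Bak, did not follow. Bbc3, encoding PUMA, had 6.08, 5.43, 5.21, 5.71 and 4.90 CPM in siRNA libraries and 5.70, 6.23, 5.50, 6.07 and 5.27 CPM in control libraries, and the ranges overlapped (log2 fold change −0.075, SE 0.093, adjusted p = 0.481; 95% interval −0.26 to 0.11). Pmaip1, encoding NOXA, had 30 to 40 reads in siRNA and 30 to 48 reads in control libraries (log2 fold change −0.15, SE 0.162, adjusted p = 0.399; 95% interval −0.48 to 0.17). A rise of the size measured for Bax lies above both intervals. Perp, a membrane protein gene of epithelial junctions, was at the edge of detection, with 0 to 7 reads in siRNA and 1 to 6 reads in control libraries, and was not tested.

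Both falls in the cell death group were larger than most of its rises. Trp53inp1, a stress gene with a role in autophagy (Entrez gene 60599, chromosome 4, 11156441 to 11174379), had 59.7, 64.4, 64.2, 59.0 and 63.7 CPM in siRNA libraries and 117, 109.7, 108, 104 and 122 CPM in control libraries. The siRNA libraries stood at 55.3% of the control mean, far from any overlap (log2 fold change −0.85, SE 0.038, adjusted p = 2.08e-18). Phlda3, whose product competes with the kinase AKT for membrane lipids, had 17.6, 17.3, 14.7, 17.0 and 16.7 CPM in siRNA libraries, against 23.2, 27.5, 24.0, 24.5 and 22.3 CPM in control libraries, without overlap (log2 fold change −0.54, SE 0.058, adjusted p = 3.63e-11).

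**Figure D3:**
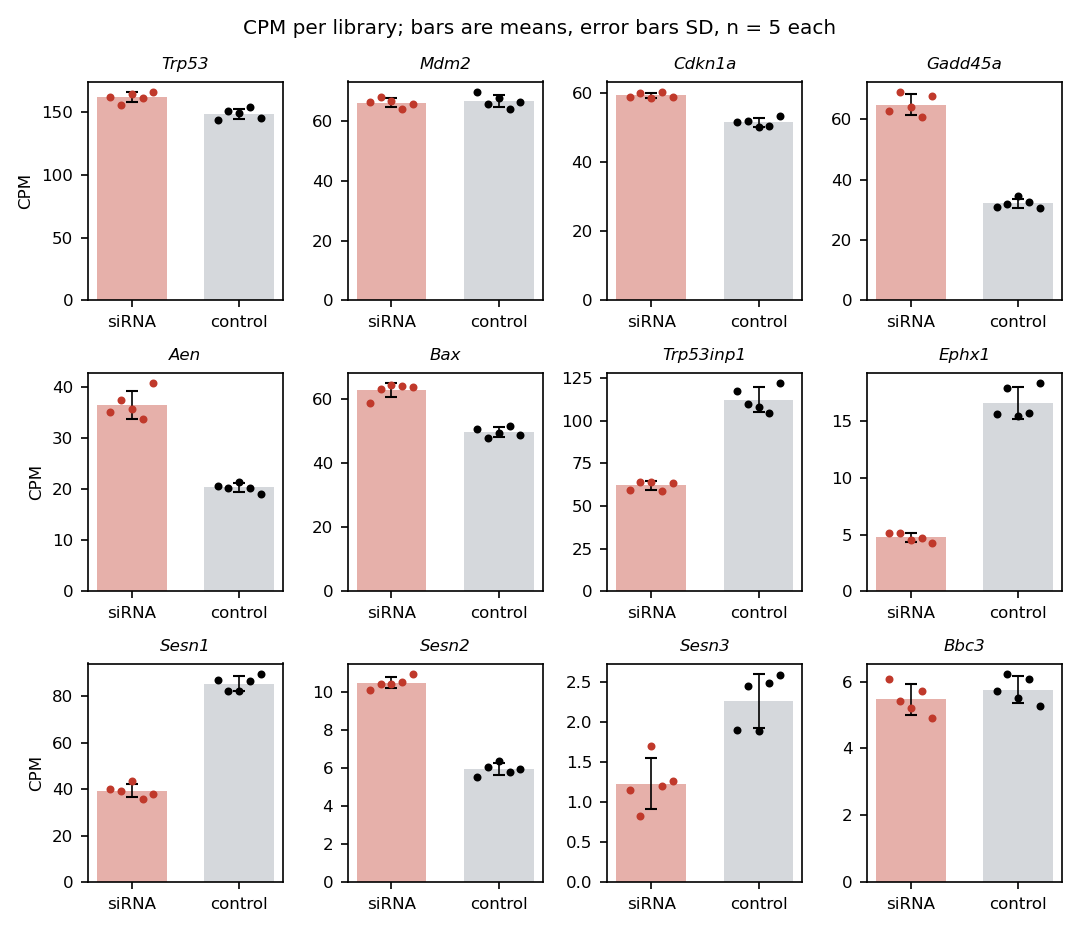
CPM of 12 members, with a bar for the mean of 5 libraries, an error bar for the SD and a point for each library (siRNA left, control right; each panel has its own axis from 0). The panels show rises in Gadd45a, Aen, Bax and Sesn2, small ones in Trp53 and Cdkn1a, falls in Trp53inp1, Ephx1, Sesn1 and Sesn3, and overlapping groups in Mdm2 and Bbc3.

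Of 4 DNA repair genes, 1 rose (25%, against 36.1% of all genes), 2 fell (50%, against 35.2%) and 1 did not pass. In all 75% of them changed, which is close to the 71.3% of all tested genes. Rrm2b, the ribonucleotide reductase subunit gene that supplies nucleotides for repair, averaged 20.9 ± 0.901 CPM in siRNA and 27.1 ± 0.826 CPM in control cells (SD, n = 5 each) and fell without overlap (log2 fold change −0.38, SE 0.048, adjusted p = 3.20e-09). A gene on the opposite strand overlaps 8.04% of Rrm2b exon bases. Ddb2, a sensor of ultraviolet damage, had 9.35 ± 0.508 CPM in siRNA and 12.2 ± 0.290 CPM in control cells (SD, n = 5 each; log2 fold change −0.38, SE 0.068, adjusted p = 4.47e-06). The value for Ddb2 is less certain, since its estimated count was fractional in all 10 libraries and 23.8% of its exon bases overlap Acp2 on the opposite strand. Polk, a translesion DNA polymerase gene, rose to 111% of the control mean, although the highest control library overlapped the siRNA range (log2 fold change 0.15, SE 0.041, adjusted p = 0.00113). Xpc, the partner of Ddb2 in damage recognition, had 34.7 ± 0.782 CPM in siRNA and 33.1 ± 1.40 CPM in control cells (SD, n = 5 each) and did not pass (log2 fold change 0.067, SE 0.042, adjusted p = 0.15).

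Redox and metabolic targets showed the widest spread of any role, with log2 fold changes from −1.80 to 0.82. Of these 6 genes 2 rose (33.3%, against 36.1% of all genes) and 4 fell (66.7%, against 35.2%). Ephx1, which encodes microsomal epoxide hydrolase, a detoxifying enzyme (Entrez gene 13849, chromosome 1, 180989556 to 181017569), had 5.15, 5.16, 4.56, 4.66 and 4.24 CPM in siRNA libraries and 15.6, 17.9, 15.4, 15.7 and 18.3 CPM in control libraries. The siRNA mean was 28.7% of the control mean, which put Ephx1 at rank 43 from the bottom among 12161 tested genes (log2 fold change −1.80, SE 0.080, adjusted p = 2.22e-23). Tigar, which diverts sugar from glycolysis, rose to 129% of the control mean (log2 fold change 0.37, SE 0.056, adjusted p = 1.63e-07). Fdxr, the ferredoxin reductase gene of mitochondria, was at 4.94 ± 0.682 CPM in siRNA and 6.07 ± 0.602 CPM in control cells (SD, n = 5 each), with overlapping libraries (log2 fold change −0.30, SE 0.101, adjusted p = 0.00858).

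Sestrins, stress-responsive inhibitors of mTORC1 signalling, did not all move together, since Sesn2 rose while Sesn1 and Sesn3 fell. Sesn1 (Entrez gene 140742, chromosome 10, 41810574 to 41908436) had 40.3, 39.2, 43.7, 35.9 and 38.1 CPM in siRNA libraries and 86.9, 82.3, 82.3, 86.4 and 89.6 CPM in control libraries. Every siRNA library was far below every control library (log2 fold change −1.12, SE 0.039, adjusted p = 1.03e-25). Sesn2 (Entrez gene 230784, chromosome 4, 132492804 to 132510456) had 10.1, 10.4, 10.4, 10.5 and 11.0 CPM in siRNA libraries and 5.54, 6.06, 6.39, 5.80 and 5.94 CPM in control libraries. Here the siRNA libraries were the higher ones, again without overlap (log2 fold change 0.82, SE 0.077, adjusted p = 1.12e-12). Sesn3 had 15 to 31 reads in siRNA and 34 to 46 reads in control libraries and fell (log2 fold change −0.88, SE 0.177, adjusted p = 2.73e-05).

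Gdf15, the secreted stress cytokine often read as a p53 target, had 22 to 38 reads in siRNA and 21 to 31 reads in control libraries. Its groups overlapped and it did not pass (log2 fold change 0.27, SE 0.179, adjusted p = 0.178; 95% interval −0.09 to 0.63).

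Paralogues among the members were then compared within each library, as the ratio of their CPM. All 7 pairs within a family were taken. The ratios are a description with no test, since where the genes of a pair moved apart without overlap their ratio had to differ. The Sesn2 to Sesn1 ratio was 0.267 ± 0.023 in siRNA and 0.0697 ± 0.0058 in control libraries (SD, n = 5 each), a log2 difference of 1.94. Sesn2 to Sesn3 was 9.00 ± 2.34 in siRNA and 2.68 ± 0.461 in control libraries, and Gadd45a to Gadd45b 41.0 ± 6.82 in siRNA and 14.7 ± 1.29 in control libraries (SD, n = 5 each). In these 3 pairs each siRNA library exceeded each control library.

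Smaller shifts were seen for Ccng1 to Ccng2 (1.41 ± 0.017 in siRNA and 1.05 ± 0.059 in control libraries), Plk3 to Plk2 (0.0703 ± 0.0080 in siRNA and 0.0521 ± 0.0032 in control libraries) and Mdm2 to Mdm4 (0.598 ± 0.015 in siRNA and 0.516 ± 0.022 in control libraries; SD, n = 5 each). These 6 ratios did not overlap between the groups. The Sesn1 to Sesn3 ratio did, at 33.6 ± 8.48 in siRNA and 38.5 ± 5.69 in control libraries (SD, n = 5 each).

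Levels of different members were compared per length, as CPM per kilobase of annotated exon (GENCODE M21, GRCm38). The length joins the exons of all annotated transcripts of a gene, whichever were expressed, so the order between genes depends on that choice. By this measure Plk2 was highest, at 57.6 ± 2.11 in siRNA and 50.6 ± 1.71 in control cells, and Trp53 followed at 40.0 ± 0.960 in siRNA and 36.7 ± 1.05 in control cells (SD, n = 5 each, CPM per kilobase). In control cells Btg2 (33.8), Bax (31.5) and Sesn1 (21.5) came next, each apart from its neighbour in all libraries. From Ei24 to Cdkn1a (14.5) each member's control range overlapped the next, and over the whole order 17 of 33 neighbouring pairs did. Sesn1 was the 12th member in siRNA and the 5th in control cells, and Gadd45a the 4th in siRNA and the 8th in control cells, at 36.7 ± 1.94 in siRNA and 18.2 ± 0.866 in control cells per kilobase. Lowest were Sesn3, at 0.0805 ± 0.021 in siRNA and 0.148 ± 0.022 in control cells, and Perp, at 0.107 ± 0.070 in siRNA and 0.0970 ± 0.052 in control cells (SD, n = 5 each, CPM per kilobase).

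**Figure D4:**
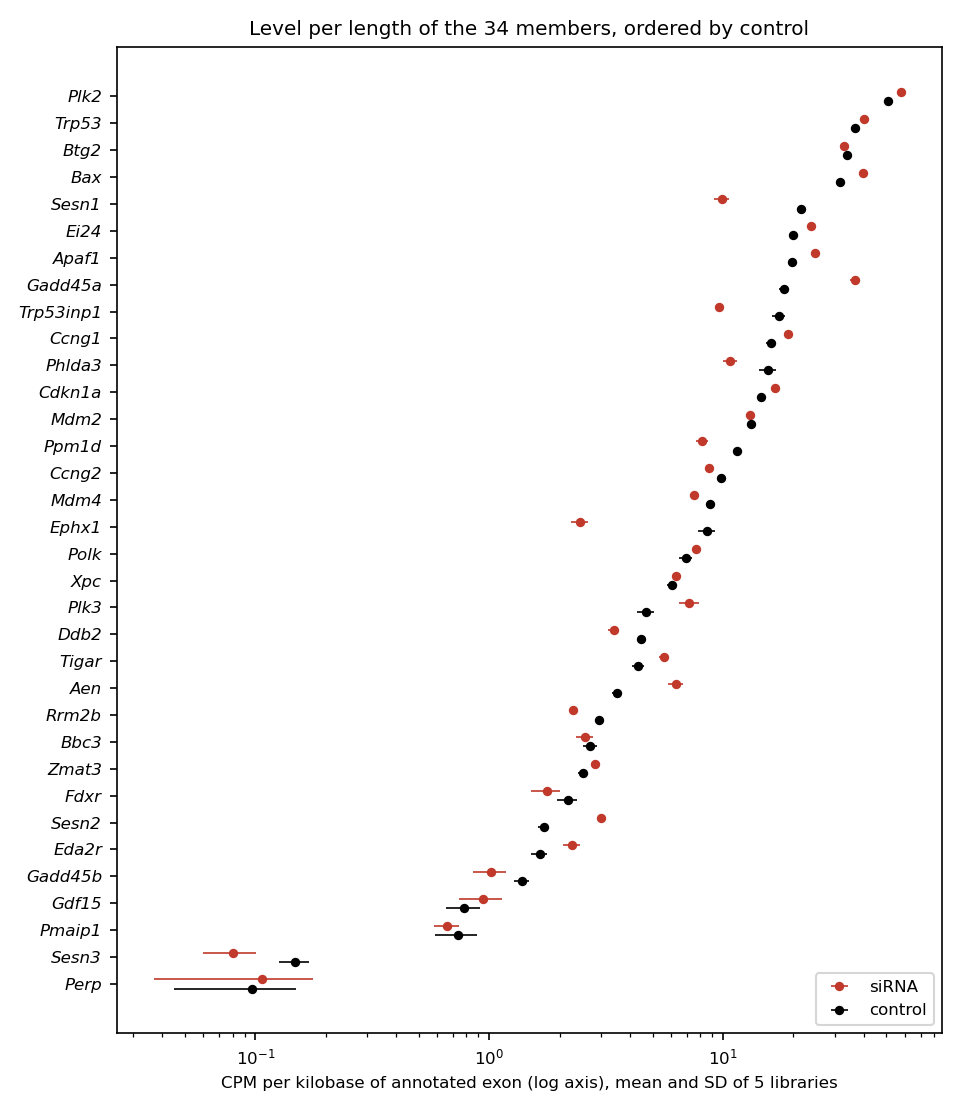
CPM per kilobase of annotated exon on a log axis for the 34 members, mean and SD of 5 libraries, ordered by the control mean (red, siRNA, upper points; black, control, lower points). Plk2 and Trp53 lead in both groups, and Ephx1, Sesn1 and Trp53inp1 in siRNA cells lie left of their control points while Gadd45a, Aen and Sesn2 lie right of them.

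Of 39 other p53 target genes tested, 11 rose (28.2%, against 36.1% of all genes), 21 fell (53.8%, against 35.2%) and 7 did not pass. Their median log2 fold change was −0.27, against −0.0019 over all tested genes, and it was −0.078 where a mean of at least 5 CPM was required. The death receptor gene Tnfrsf10b was at 125 ± 2.47 CPM in siRNA and 57.7 ± 2.33 CPM in control cells (SD, n = 5 each; log2 fold change 1.11, SE 0.031, adjusted p = 1.59e-30), with fractional counts in 5 libraries. Those that fell include the matricellular gene Thbs1 (log2 fold change −0.76, SE 0.053, adjusted p = 4.00e-07) and the D-glutamate cyclase gene Dglucy (log2 fold change −1.05, SE 0.079, adjusted p = 1.36e-15).

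Genes that activate p53 or control its turnover were mixed, with 9 of 24 higher (37.5%, against 36.1% of all genes), 6 lower (25.0%, against 35.2%) and 9 not called. Their median log2 fold change was near 0, from −0.013 to 0.021 over the alternatives. The p53-binding inhibitor gene Ppp1r13l (0.68) and the nucleolar chaperone gene Npm1 (0.36) rose, and the nuclear body gene Pml (−0.39) and Atm (−0.32), the kinase gene that signals DNA breaks to p53, fell, in log2 fold change. In the BCL2 family and caspases 7 of 23 rose (30.4%), 9 fell (39.1%) and 7 did not pass (median −0.047), against 36.1% higher and 35.2% lower of all genes. Cycs, encoding cytochrome c, rose by 0.43 on the log2 scale. Bmf, a BH3-only gene, and Casp6 fell by 0.66 and 0.56 on the log2 scale.

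CDK inhibitors, cyclins and the RB family had 8 of 25 higher (32.0%, against 36.1% of all genes), 13 lower (52.0%, against 35.2%) and 4 not called (median −0.13). Cdkn2b, encoding the CDK4 and CDK6 inhibitor p15, had 149 ± 4.92 CPM in siRNA and 62.5 ± 4.66 CPM in control cells (SD, n = 5 each; log2 fold change 1.25, SE 0.037, adjusted p = 2.88e-22). Lin9, a subunit of the DREAM complex, rose by 0.46 on the log2 scale. Rbl2, which encodes the RB relative p130 of the same complex, fell to 27.4 ± 1.81 CPM in siRNA cells, against 58.4 ± 1.36 CPM in control cells (SD, n = 5 each; log2 fold change −1.09, SE 0.041, adjusted p = 7.32e-26), and E2f2 fell too (−1.22). The estimated count of Rbl2 was fractional in all 10 libraries, so its value is less certain. Of 20 mitotic genes that p53 represses through p21 and DREAM, 2 rose (10.0%, against 36.1% of all genes), 10 fell (50.0%, against 35.2%) and 8 did not pass (median −0.096). In all 60.0% of them changed, which is below the 71.3% of all tested genes. Nusap1 (−0.51) and Cdc25c (−0.42) fell, whereas Mybl2 (0.34) and Foxm1 (0.22), transcription factor genes of the cycle, rose. Estimated counts of Nusap1 were fractional in 9 libraries.

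Regulators and targets of the FOXO and ATF4 pathways, which share targets with p53, had 11 higher of 15 (73.3%, against 36.1% of all genes) and 4 lower (26.7%, against 35.2%), with a median log2 fold change of 0.39. The list pools both pathways, so these shares describe neither of them alone. Irs2, an insulin receptor adaptor gene, was at 27.2 ± 2.11 CPM in siRNA and 7.24 ± 0.386 CPM in control cells (SD, n = 5 each; log2 fold change 1.91, SE 0.065, adjusted p = 1.71e-27), and the asparagine synthetase gene Asns rose by 1.25 on the log2 scale. The mTORC1 inhibitor gene Ddit4 and Foxo3 fell by 1.03 and 0.56 on the log2 scale. Some genes stand in more than 1 of these lists, and no test set one list against another.

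**Figure D5:**
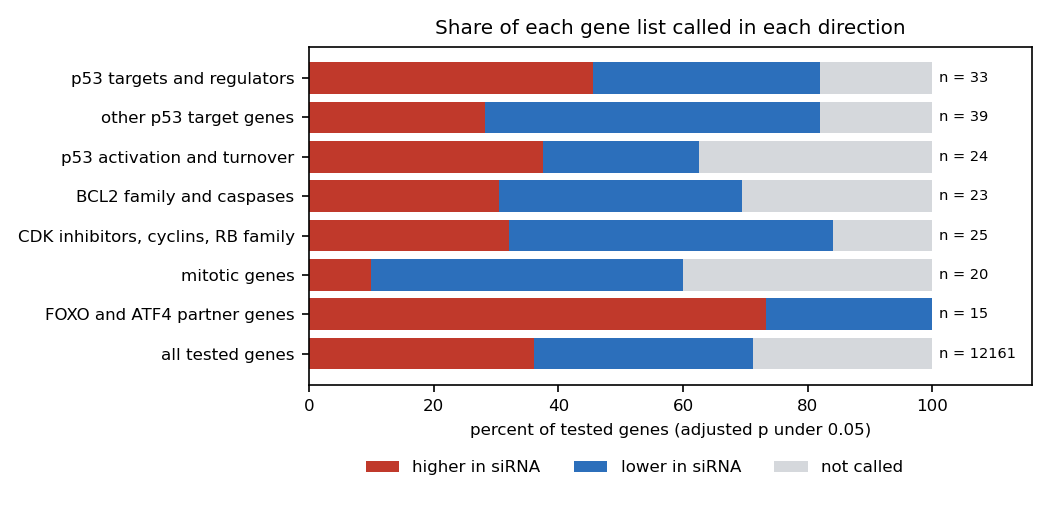
Percent of the tested genes of each list that were higher (red), lower (blue) or not called (grey) at an adjusted p under 0.05, with the number tested at the right. The members show 45.5% higher and 36.4% lower, the other p53 targets 28.2% and 53.8%, mitotic genes 10% and 50%, and all tested genes 36.1% and 35.2%.

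A 7-base word, GTAAAGA, was tied to lower fold changes over 3′ UTRs in earlier results of these data, and the siRNA sequence is not given in the sources used here. Taking for each gene its longest 3′ UTR in the annotation, the word was present in 781 of 4153 tested genes that fell (18.8%), in 363 of 4275 that rose (8.49%) and in 12.9% of all 11753. Since the word came from these same data, this contrast is no new evidence. The median 3′ UTR was also longer in genes that fell (1577 bases) than in those that rose (1334 bases), and the part of length was not tested. Among the members 2 of the 12 that fell carry it, Sesn1 and Rrm2b, as do Eda2r, which rose, and Mdm2. Ephx1, Trp53inp1, Sesn3 and Phlda3 fell without the word. Leaving out the 4 carriers, a choice made after seeing the data, gave 14 members higher, 10 lower and 5 not called (median log2 fold change 0.12). The part of the word in these falls was not tested.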

How the data were processed

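The authors deposited 1 table of estimated counts, not normalized, for 16251 genes with Entrez IDs and symbols. The submitters' processing notes name GRCm38.p6 as build and, as tools, RSEM 1.3.1, HISAT2 2.2.1 and Bowtie2 2.4.5. How each was set, the annotation and the strand are not stated in the sources used here. Per the labels' protocols, poly(A) RNA was captured on oligo(dT) beads.

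Members, gene lists and tests were chosen with earlier results of these data known. After rounding, the estimated counts of the 12161 genes passing filterByExpr (minimum count 10) went into 1 fit in R 4.3.3, by edgeR 4.0.16: TMM factors, group as the only term, and a robust quasi-likelihood F test with Benjamini-Hochberg adjustment. All adjusted p-values of genes come from it. SE is the size of the log2 fold change over the square root of F, and CPM used TMM-scaled library sizes. Libraries of 1 group differed beyond sampling noise in every pair (chi-square over degrees of freedom 1.50 to 3.47).

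Named are Kdr, all members and, from each other list, the 2 called genes highest and the 2 lowest in log2 fold change with a mean of at least 5 CPM. Some genes that this rule names are not reported here. On simulated counts of 12161 genes for this comparison, the test recovered 44% of the 50 genes given a 1.1-fold change. Recovery was 88% both for 1.3-fold and for 1.5-fold changes, every gene changed 2-fold was called, and 11 of its calls (6.43%) were false. Only 200 genes were changed in the simulation, and all genes were given 1 common variability between libraries. In the data 71.3% of genes were called, so these rates may differ there. Alternatives were RLE factors, upper-quartile factors, limma-voom (limma 3.58.1), DESeq2 1.42.0, no filter, at least 5 CPM on average, a replicate block, glmTreat (1.5-fold), unrounded counts, and leaving out each library. GENCODE M21 gave exon sharing and 3′ UTRs, and RefSeq gave coordinates and promoters, both on GRCm38.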

Additional observations from a re-analysis of the deposited data

Results flagged for a closer look

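In 2 of 68 groups of 5 libraries examined (33 members and Kdr, each in siRNA and in control), 1 library lay far from the others by Dixon's test, while chance flags about 1 in 20. Bax was at 58.7 CPM in siRNA replicate 1, below the other siRNA libraries at 63.0 to 64.2 CPM. Ddb2 was at 11.7 CPM in control replicate 4, below the other control libraries at 12.2 to 12.3 CPM. Both libraries were still on their own side of the other group.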

How the results depend on the processing

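The calls of members held under nearly all settings. Over the 18 settings other than glmTreat (up to 17 for Gadd45b, Pmaip1, Sesn3 and Gdf15, which were not tested at a mean of at least 5 CPM), every one of the 33 kept its side of the threshold, and 32 kept their direction. The exception was Mdm2, not called throughout, with a log2 fold change from −0.024 to 0.0057 when 1 library was left out, the highest without control replicate 1. Nearest to losing their calls were Gadd45b (adjusted p up to 0.049) and Fdxr (up to 0.042). Against a fold of more than 1.5 (glmTreat), 1041 of 12161 tested genes passed, 447 higher and 594 lower. Of the 33 members 3 were higher (Gadd45a, Aen and Sesn2) and 3 lower (Ephx1, Sesn1 and Trp53inp1). Fewer genes passed than in the main fit because that test asks for a larger change. Under the same test the other lists had, higher and lower, 2 and 4 of 39 (other p53 targets), 0 and 0 of 24 (activation and turnover) and 0 and 0 of 23 (BCL2 family and caspases). The remaining lists had 1 and 4 of 25 (CDK inhibitors, cyclins and RB family), 0 and 0 of 20 (mitotic genes), and 6 and 1 of 15 (FOXO and ATF4 genes). No test set these counts against those of all genes. With the replicate block 15 members were higher and 12 lower, 8537 genes passed, and Kdr had a log2 fold change of −2.84. FOXO and ATF4 genes called lower numbered 3 in place of 4 under 8 settings, among them DESeq2, no filter and the block. Over the 19 alternatives the median of the members ran from 0.05 to 0.12. That of the activation and turnover list ran from −0.013 (upper-quartile factors) to 0.021 (without control replicate 1), that of other p53 targets from −0.29 to −0.078, and that of the BCL2 family and caspases from −0.063 to −0.015 (without control replicate 5). Same-numbered libraries did not deviate together (0 of 5 correlations over 0.1), so the numbers are not taken as pairs. Depth limits the members under 50 reads a library, Pmaip1, Gadd45b, Sesn3, Gdf15 and Perp.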
